A study of Homo sapiens with 6 samples.

Results

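The genes that carry pyruvate into mitochondria, turn it into acetyl-CoA and run and refill the tricarboxylic acid (TCA) cycle were examined in Huh7 cells, a human hepatoma line, after transfection with an siRNA against ASGR1. They were listed by name for their function, as 33 genes of the 57905 Ensembl gene IDs in the authors' table. They comprise 7 genes of pyruvate entry and the pyruvate dehydrogenase (PDH) complex, 5 PDH kinases and phosphatases, 15 genes of the TCA cycle and isocitrate dehydrogenases, and 6 genes of anaplerosis, malic enzymes and carriers. Cells received a scrambled siRNA (siControl, 3 libraries) or an siRNA against ASGR1 (siASGR1, 3 libraries), and all were harvested 72 h later. ASGR1 encodes the major subunit of the hepatocyte asialoglycoprotein receptor. Nothing in the labels ties the libraries to separate cultures, so a p-value here weighs a difference only against library-to-library spread, perhaps technical in origin. Levels are in FPKM (fragments per kilobase of exon, scaled to the mapped total of the library), given as mean ± SD with n = 3 libraries per group. FPKM are divided by exon length, so levels of different genes can be compared only as far as that length matches the transcripts made. Lengths over all GENCODE v29 exons of a gene run from 1546 bases (MPC1) to 16243 (ME2) among the members. How well they match was not tested, so rankings and shares between genes are uncertain to that extent. A gene was called at an adjusted p under 0.05 in limma on log2(FPKM + 1), with p-values adjusted over all 13568 genes tested.

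Pyruvate made by glycolysis enters the mitochondrial matrix through a carrier built of MPC1 and MPC2. The PDH complex oxidises it to acetyl-CoA; PDH kinases switch the complex off by phosphorylation and PDH phosphatases switch it back on. Citrate synthase then joins acetyl-CoA to oxaloacetate, and the cycle returns oxaloacetate through citrate, isocitrate, α-ketoglutarate, succinyl-CoA, succinate, fumarate and malate. In liver, pyruvate carboxylase and other anaplerotic enzymes refill the cycle, while citrate and malate leave through carriers to supply lipid synthesis, gluconeogenesis and NADPH.

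The targeted gene and the identity of the cells were checked first. ASGR1 was 17.54, 17.56 and 16.90 FPKM in siControl and 4.60, 4.82 and 4.71 in siASGR1 in the table of the whole series, but 14.65, 15.81 and 14.04 in the siASGR1 libraries' own files. ASGR1 was the only gene in the table whose values differed between these deposited sources, so the size of its decrease depends on the source. The depth recovered from the steps between low FPKM values was 16325000 to 19322000 fragments per library. All 8 hepatoma markers (AFP and ALB among them) were present, and their summed level was 3959 to 4073 in siControl and 7470 to 7766 in siASGR1. Of 8 fibroblast markers, 3 had a mean of at least 1 FPKM in siControl and 1 in siASGR1, and the sums were 10.1 to 11.1 and 11.03 to 12.3. These similar sums hide opposite changes. Of the 3 markers tested 1 was called higher and 2 lower, but those 2 reached 1 FPKM, the level needed for testing, only in siControl. Among the markers not tested, COL3A1, DCN and LUM were lower in siASGR1 without overlap, and PDGFRB and THY1 overlapped. PDGFRA rose from 4.49 ± 0.09 to 10.95 ± 0.54, while COL1A1 fell from 2.46 ± 0.37 to 0.027 ± 0.0058. COL1A2 fell from 1.51 ± 0.16 to 0.02 in every siASGR1 library. Summed endothelial markers were at most 0.21, with KDR and TEK at 0 in all 6 libraries. Of 5 blood markers, LYZ alone had a mean of at least 1 FPKM, and the sums were 68.1 to 75.5 and 114.3 to 118.0. Whether these differences bear on the genes below was not tested. In bulk RNA, a change in the share of a kind of cell and a change in RNA per cell cannot be told apart.

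Of the 33 genes, 32 passed the filter on low values (ME3 did not), and 13 were called higher and 6 lower in siASGR1. These are 40.6% and 18.8% of the members tested, against 20.9% and 40.4% of all genes tested. Their median log2 fold change was 0.02, against -0.13 over every gene tested. The 3 libraries of each group did not overlap for 13 members that were higher and 8 that were lower, against 23.5% and 43.8% of all genes tested. The split depended on how libraries were scaled. With median-of-ratios scaling, which shifted all tested genes up by 0.13 (log2) at the median, 17 members were called higher and 3 lower (29.9% and 28.9% of all genes). The 13 members called higher were also called higher under each of the 3 other scalings (median-of-ratios, upper-quartile and quantile). Of the 6 called lower, 3 stayed so under all of them: PDP1, PDP2 and OGDH.

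**Figure D1:**
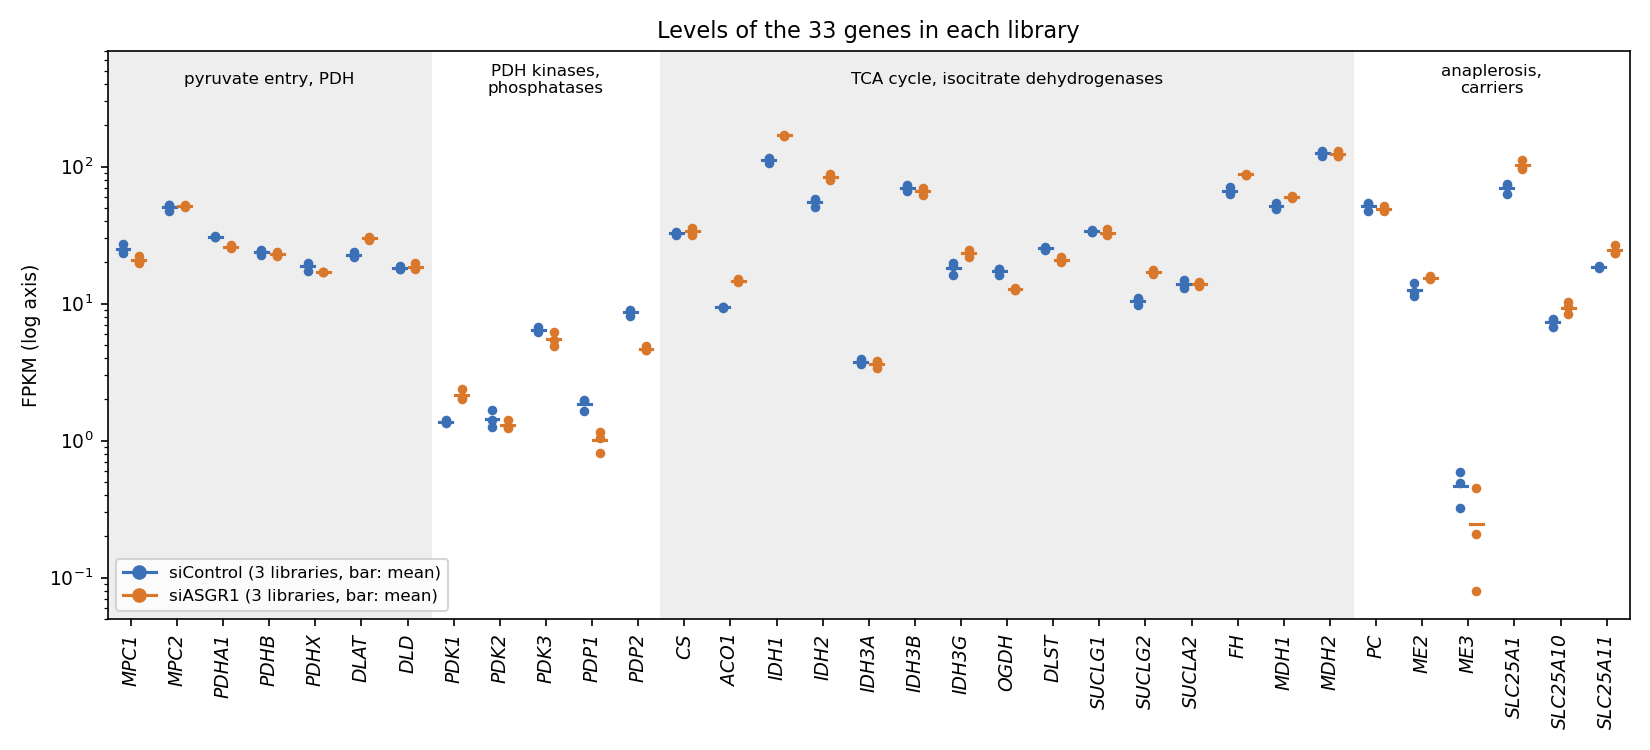
FPKM of each of the 33 genes in each library on a log axis, with 3 siControl (blue) and 3 siASGR1 (orange) points and a bar at each mean; shading separates the roles. IDH1 and MDH2 lie above 100 FPKM, whereas the PDH kinases and phosphatases lie under 10 and ME3 under 1.

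Promoter sequence is shown for PDP2, a phosphatase gene that fell, and for 4 genes that rose, so that their start regions can be read beside the values. The RefSeq table (build GRCh38.p14) held a start region for 31 of the 33 genes, and the most upstream start listed was used. Stretches lie in the 250 bases before that start, on the strand of the gene, 5′ to 3′, and each is an unbroken run with no base inside a GENCODE exon. Capitals mark matches on either strand to ACGTG and to CCAAT, the box bound by NF-Y. ACGTG is a form of the core of hypoxia response elements and part of the CACGTG E-box. The GCGTG form of that core was not searched for and is not marked.
PDP2 (chr16:66880265-66880360, plus strand): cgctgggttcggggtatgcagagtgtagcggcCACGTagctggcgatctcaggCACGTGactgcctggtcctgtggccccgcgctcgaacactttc
PDK1 (chr2:172555123-172555372, plus strand): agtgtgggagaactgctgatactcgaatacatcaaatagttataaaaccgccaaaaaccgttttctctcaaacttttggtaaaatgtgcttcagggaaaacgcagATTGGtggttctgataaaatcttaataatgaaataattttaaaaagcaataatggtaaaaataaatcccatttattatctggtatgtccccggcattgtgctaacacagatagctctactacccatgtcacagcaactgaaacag
IDH1 (chr2:208255134-208255246, minus strand): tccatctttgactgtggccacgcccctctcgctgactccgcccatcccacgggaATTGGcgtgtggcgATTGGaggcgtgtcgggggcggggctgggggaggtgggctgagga
FH (chr1:241519762-241520005, minus strand): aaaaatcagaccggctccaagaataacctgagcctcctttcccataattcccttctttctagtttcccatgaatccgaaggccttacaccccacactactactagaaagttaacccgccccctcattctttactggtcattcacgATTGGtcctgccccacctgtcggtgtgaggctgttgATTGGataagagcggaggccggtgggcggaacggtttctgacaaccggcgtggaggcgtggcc
SLC25A1 (chr22:19178831-19178986, minus strand): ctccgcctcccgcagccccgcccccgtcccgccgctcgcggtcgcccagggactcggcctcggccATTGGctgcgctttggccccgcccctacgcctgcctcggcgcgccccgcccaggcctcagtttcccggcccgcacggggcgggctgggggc
The PDP2 stretch holds ACGTG matches, among them a full E-box, and the other 4 hold CCAAT matches. This is no contrast between genes that fell and rose: PDP2 also has a CCAAT match closer to its start, outside the stretch shown, and DLAT, ACO1, IDH2, SUCLG2, SLC25A10 and SLC25A11, which rose, have none. In the 250 bases, CCAAT was found in 17 of 31 members (54.8%) and in 35.9% of the 9361 tested genes with an entry. ACGTG was found in 7 of 31 (22.6%), against 24.1%. The PDP2 and IDH1 stretches lie inside the annotated genes, in introns of longer transcripts, and the other 3 lie just before the gene's first base. These are matches of letters, not binding sites.

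Of the 7 genes of pyruvate entry and the PDH complex, 1 was called higher and 2 lower (3 and 0 with median-of-ratios scaling). Over all genes tested, 20.9% were higher and 40.4% lower (29.9% and 28.9% with median-of-ratios scaling). Catalytic subunits of the complex moved in opposite directions. DLAT, which carries the lipoyl arms and transfers the acetyl group, was 22.67, 22.01 and 23.76 FPKM in siControl and 29.86, 29.08 and 30.68 in siASGR1. Every siASGR1 library lay above every siControl library, and DLAT rose 1.31-fold (log2 fold change 0.37, SE 0.04, adjusted p = 0.000292). PDHA1, the decarboxylating subunit that the kinases phosphorylate, was 30.60, 30.48 and 30.93 in siControl and 25.59, 26.66 and 26.00 in siASGR1. The groups were again apart, and PDHA1 fell to 85.1% of siControl (log2 fold change -0.23, SE 0.04, adjusted p = 0.00128), a call lost with median-of-ratios scaling (-0.08, adjusted p = 0.113). Its partner PDHB was 23.8 ± 0.88 and 22.9 ± 0.83 (95% interval of the log2 fold change -0.16 to 0.06, adjusted p = 0.369).

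Of the remaining genes of pyruvate entry, MPC1 alone was called. DLD, the dehydrogenase that PDH shares with the α-ketoglutarate complex, was 18.2 ± 0.45 and 18.5 ± 0.99 (interval -0.09 to 0.14). PDHX, which tethers DLD to the core, was 17.16, 19.13 and 19.87 against 16.96, 16.97 and 16.99. Those groups did not overlap, although PDHX did not pass the test (adjusted p = 0.0829; 0.0163 without siControl replicate 1). Of the carrier, MPC2 was 50.7 ± 2.58 and 51.7 ± 0.98 (interval -0.08 to 0.14), called higher with median-of-ratios scaling (0.18, adjusted p = 0.0131). MPC1 fell from 24.9 ± 1.99 to 20.8 ± 1.46 (a log2 change of -0.25 with an SE of 0.07, adjusted p = 0.0178). That call was lost with median-of-ratios (-0.11, adjusted p = 0.214) and upper-quartile scaling (adjusted p = 0.0634), with no filter on low values (0.0516), and without siASGR1 replicate 1 (0.0566) or siASGR1 replicate 2 (0.0542). DLD was called higher with median-of-ratios scaling (0.17, adjusted p = 0.019). On the other strand, MPC2 shares 22.5% of its exon bases with DCAF6 (12.96 FPKM on average), and PDHA1 21.3% with MAP3K15 (3.39 FPKM).

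Genes that control PDH by phosphorylation included the largest decreases in log2 fold change among the members tested. Of the 5, 1 was called higher and 2 lower under both scalings, near the shares of all genes tested as deposited (20.9% and 40.4%). Those that fell were both phosphatases. PDP2 (ENSG00000172840; GRCh38 chromosome 16, 66878589 to 66895754), a PDH phosphatase, was 9.0, 8.12 and 8.88 FPKM in siControl and 4.59, 4.61 and 4.88 in siASGR1. All siASGR1 libraries were well below all siControl libraries, at 54.2% of the siControl mean (log2 fold change -0.76, SE 0.06, adjusted p = 3.8e-05). PDP1, the other phosphatase catalytic subunit, was 1.65, 1.96 and 1.98 against 1.05, 0.81 and 1.16. It also fell, to 54.0% of siControl (log2 fold change -0.51, SE 0.10, adjusted p = 0.00412). Its values rest on about 84 to 185 fragments per library. PDP1 made up 17.7% ± 2.02 of the summed phosphatase FPKM in siControl and 17.6% ± 2.31 in siASGR1, so the balance between both phosphatases was similar while their sum was lower. The regulatory subunit gene PDPR, named after its value was seen, fell from 13.1 ± 0.14 to 8.61 ± 0.29 (adjusted p = 4.95e-05). PDPR has near-identical copies on its chromosome, so its value is uncertain.

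Among the kinases, PDK1 rose and the others did not pass the test. PDK1 (ENSG00000152256; GRCh38 chromosome 2, 172555373 to 172608669), a kinase whose gene is a known target of the hypoxia factor HIF-1, was 1.38, 1.41 and 1.35 in siControl and 2.08, 2.00 and 2.38 in siASGR1. It rose 1.56-fold with no overlap (log2 fold change 0.40, SE 0.08, adjusted p = 0.00391). PDK2 was 1.45 ± 0.21 and 1.30 ± 0.096 (interval -0.32 to 0.14). PDK2 shares 38.6% of its exon bases with SAMD14 on the other strand, which was near 0 (0.06 FPKM on average). PDK3, with the highest FPKM of the 3 kinases measured here, was 6.45 ± 0.28 and 5.50 ± 0.64 (adjusted p = 0.0598). It was called lower without siASGR1 replicate 1 (log2 fold change -0.27, adjusted p = 0.0168), and under a filter of 5 FPKM (0.0461). Within the summed kinase FPKM, PDK1 took 14.45%, 14.87% and 15.32% in siControl and 21.94%, 24.51% and 25.81% in siASGR1. PDK3 took 69.6% ± 1.78 and 61.3% ± 3.29. The size of these shares depends on exon length, 14883 bases for PDK1 and 4951 for PDK3 in GENCODE v29. In fragments the ranges overlapped, at about 328 to 682 per library for PDK1 and 448 to 647 for PDK3. PDK4, the fasting-induced kinase, was 0.59 to 0.95 FPKM over all 6 libraries and was not tested.

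**Figure D2:**
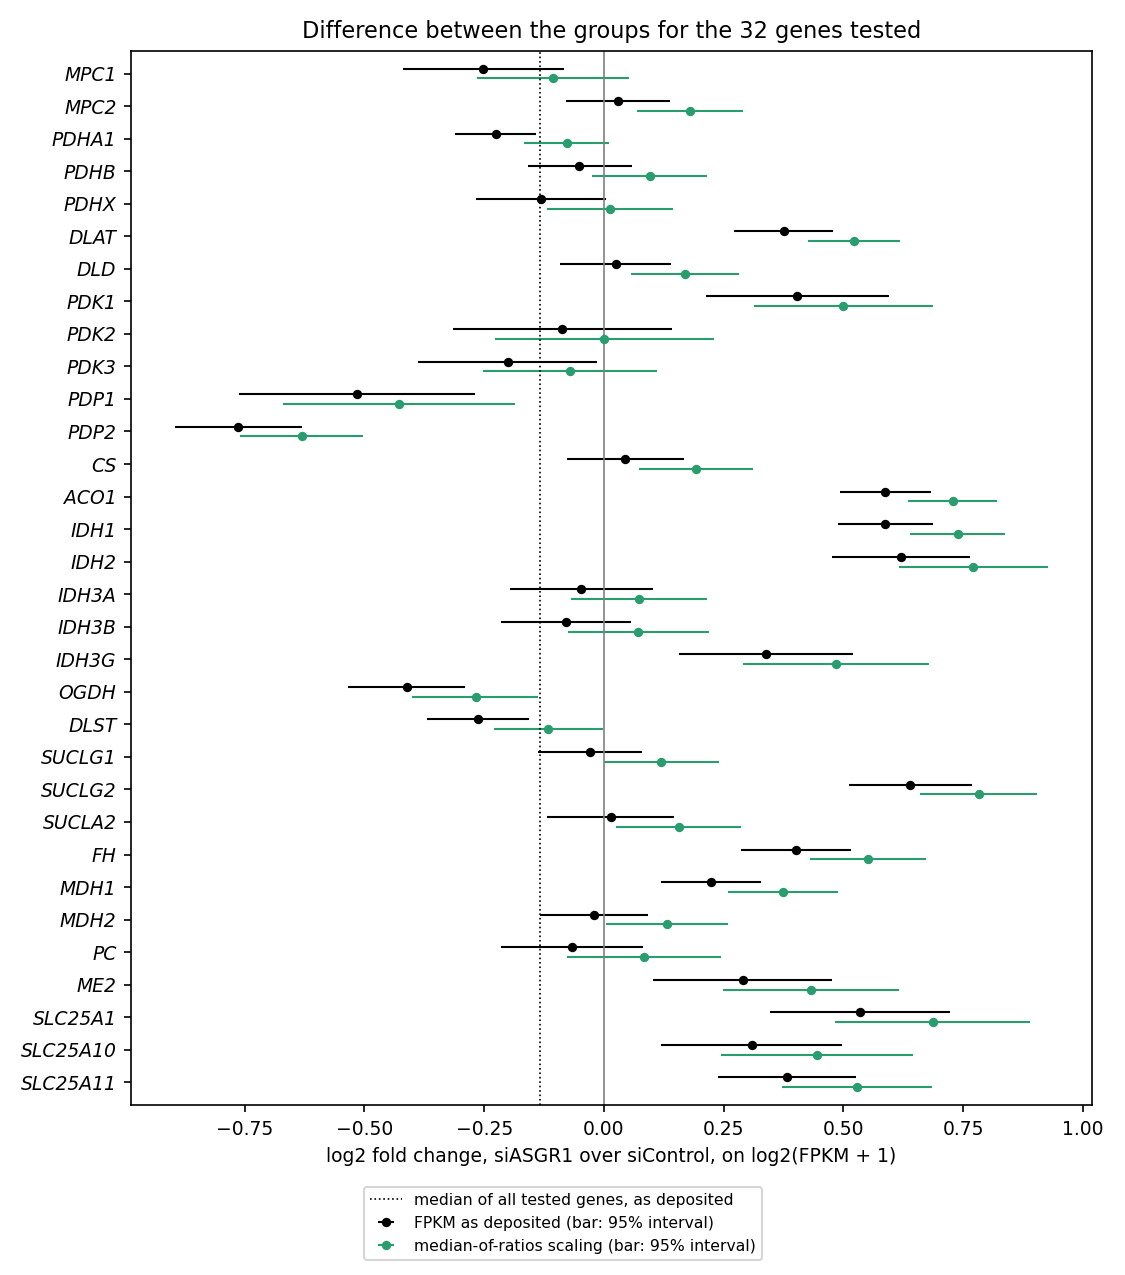
Log2 fold change of siASGR1 over siControl for the 32 genes tested, with 95% intervals from limma, for FPKM as deposited (black) and after median-of-ratios scaling (green); the dotted line is the median of all tested genes. PDP1, PDP2 and OGDH lie below 0 with both, and DLAT, PDK1, ACO1, IDH1, IDH2 and SUCLG2 lie above 0 with both.

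Of the 15 genes of the cycle and the isocitrate dehydrogenases, 7 were called higher and 2 lower (9 and 1 with median-of-ratios scaling). These are 46.7% and 13.3%, against 20.9% and 40.4% of all genes tested. With median-of-ratios scaling they are 60.0% and 6.67%, against 29.9% and 28.9%. The list is wider than the mitochondrial cycle, since it holds the cytosolic ACO1, IDH1 and MDH1 and the NADP-dependent IDH2. Among genes for citrate, aconitase and isocitrate dehydrogenases, ACO1, IDH1, IDH2 and IDH3G rose, while CS, IDH3A and IDH3B did not pass the test. CS, which makes citrate, was 32.5 ± 0.66 and 33.6 ± 2.14 (interval -0.08 to 0.17), and was called higher with median-of-ratios scaling (0.19, adjusted p = 0.0137). ACO1, the cytosolic aconitase that doubles as an iron-responsive RNA-binding protein, was 9.47, 9.34 and 9.46 in siControl and 14.45, 14.51 and 15.03 in siASGR1. It rose 1.56-fold (log2 fold change 0.59, SE 0.04, adjusted p = 2.81e-05), with replicates of each group close together.

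The NADP-dependent isocitrate dehydrogenases rose together. IDH1 (ENSG00000138413; GRCh38 chromosome 2, 208236227 to 208266074), the cytosolic enzyme that yields NADPH, was 106.30, 114.09 and 115.79 in siControl and 170.04, 168.32 and 167.80 in siASGR1. All siASGR1 libraries lay above all siControl libraries, and the rise was 1.51-fold (log2 fold change 0.59, SE 0.04, adjusted p = 3.37e-05). IDH2, its mitochondrial counterpart, was 57.88, 55.96 and 50.39 against 80.16, 87.72 and 85.94. It rose 1.55-fold (log2 fold change 0.62, SE 0.06, adjusted p = 0.000134). IDH1 made up 67.2% ± 2.47 of their sum in siControl and 66.6% ± 1.19 in siASGR1, a difference within the spread between libraries (exact permutation test, two-sided p = 0.8).

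The NAD-dependent enzyme of the cycle is built from 3 gene products, and of these IDH3G alone was called. IDH3A, the catalytic subunit, was 3.78 ± 0.16 and 3.63 ± 0.22 (interval -0.20 to 0.10). IDH3B was 70.2 ± 3.81 and 66.5 ± 3.71 (interval -0.21 to 0.06), called lower with quantile normalization (adjusted p = 0.0132). IDH3G, a regulatory subunit, was 18.84, 19.72 and 16.21 against 22.03, 24.62 and 23.28. It rose 1.28-fold (log2 fold change 0.34, SE 0.08, adjusted p = 0.00698). IDH3A was the lowest of the 15 genes in both groups, at 4.11% ± 0.40 and 3.90% ± 0.42 of the summed IDH3 FPKM. IDH3G shares 10.2% of its exon bases with SSR4 (29.4 FPKM on average) on the other strand, and IDH3A 38.2% with ACSBG1 (0.78 FPKM). Without a stated strand setting, reads of the genes sharing such bases cannot be told apart.

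In the α-ketoglutarate dehydrogenase complex, which makes succinyl-CoA, OGDH and DLST, the subunits not shared with PDH, were called lower as deposited. OGDH (ENSG00000105953; GRCh38 chromosome 7, 44606572 to 44709066), its decarboxylating subunit, was 17.81, 17.78 and 16.04 in siControl and 12.58, 12.96 and 12.50 in siASGR1. It fell to 73.7% of siControl, with all siASGR1 libraries below the lowest siControl one (log2 fold change -0.41, SE 0.05, adjusted p = 0.000424). DLST, its lipoyl-bearing succinyl transferase, fell from 25.3 ± 0.65 to 20.9 ± 0.88 (a log2 change of -0.26 with an SE of 0.05, adjusted p = 0.0019), a call lost with median-of-ratios scaling (-0.12, adjusted p = 0.0751).

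Succinyl-CoA ligase pairs a common subunit, SUCLG1, with a nucleotide-specific one. SUCLG1 was 33.6 ± 0.56 and 32.95 ± 1.70 (interval -0.14 to 0.08). SUCLA2, the subunit of the ATP-forming enzyme, was 13.69, 13.08 and 14.90 in siControl and 14.33, 14.23 and 13.50 in siASGR1 (interval -0.12 to 0.15). SUCLG2 (ENSG00000172340; GRCh38 chromosome 3, 67360460 to 67654614), the subunit of the GTP-forming enzyme, was 10.75, 9.80 and 11 against 17.54, 16.41 and 16.86. SUCLG2 rose 1.61-fold, the largest rise among the members tested (log2 fold change 0.64, SE 0.06, adjusted p = 6.94e-05). The share of SUCLA2 in the pair was 56.01%, 57.17% and 57.53% in siControl and 44.96%, 46.44% and 44.47% in siASGR1. The partner with the higher FPKM was thus SUCLA2 in each siControl library and SUCLG2 in each siASGR1 library. That order depends on exon length, 8928 bases for SUCLA2 and 3090 for SUCLG2 in GENCODE v29. In fragments SUCLA2 was the higher, at about 1963 to 2392 per library, against 509 to 1013 for SUCLG2. With median-of-ratios scaling SUCLA2 was called higher as well (0.16, adjusted p = 0.0439), but a share within a library does not depend on that scaling.

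In the last span of the cycle, FH, fumarase, was 62.88, 70.59 and 65.11 in siControl and 86.89, 88.64 and 87.32 in siASGR1. It rose 1.32-fold (log2 fold change 0.40, SE 0.05, adjusted p = 0.000336). Outside the mitochondrial cycle, MDH1, the cytosolic malate dehydrogenase of the malate-aspartate shuttle, rose from 51.3 ± 2.37 to 60.0 ± 1.35 (a log2 change of 0.22 with an SE of 0.04, adjusted p = 0.00375). MDH2, the mitochondrial enzyme, was 124.9 ± 5.15 and 123.3 ± 5.28 (interval -0.13 to 0.09). MDH1 took 29.1% ± 0.52 of the pair in siControl and 32.8% ± 0.57 in siASGR1. MDH2 was called lower with quantile normalization (-0.14, adjusted p = 0.0196), which ranks values and turned the direction seen with median-of-ratios scaling (0.13).

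**Figure D3:**
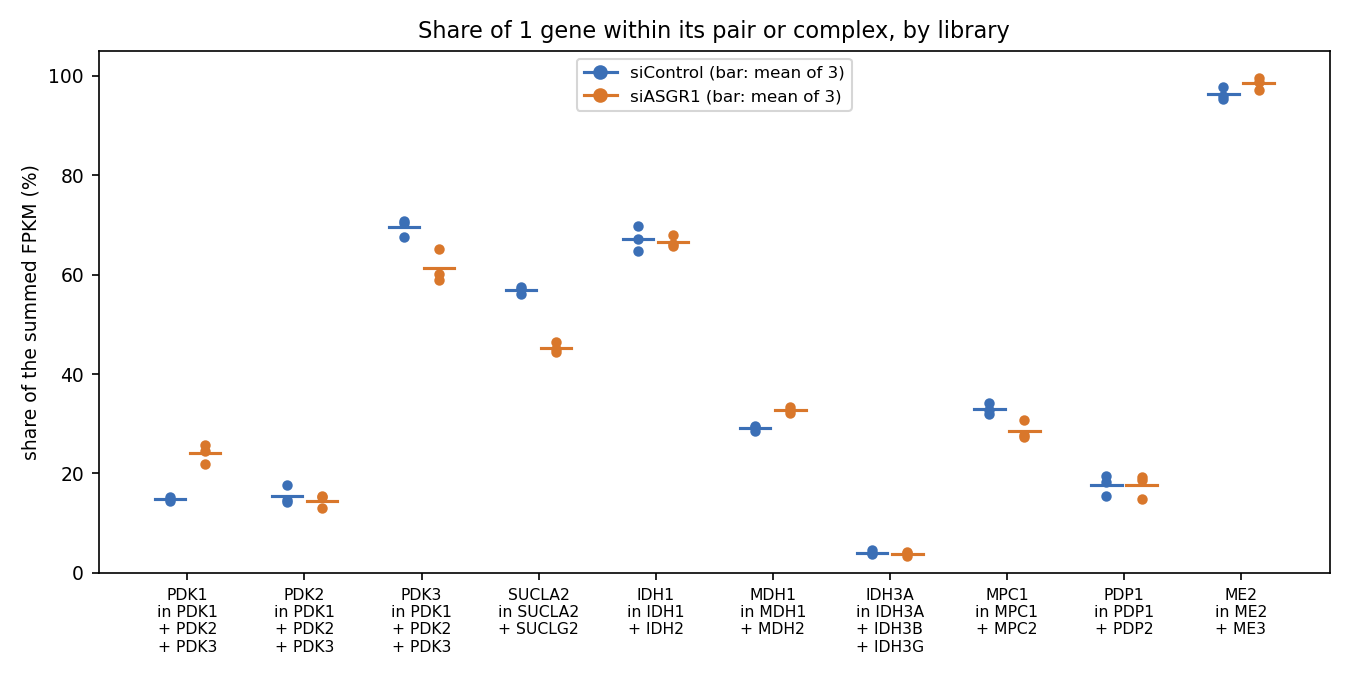
Share of 1 gene in the summed FPKM of its pair or complex in each library (blue siControl, orange siASGR1, bars at the means of 3 libraries). SUCLA2 drops from between 56.0% and 57.5% to between 44.5% and 46.4%, PDK1 rises, and the IDH1, IDH3A and PDP1 shares overlap between groups.

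Over the 10 shares compared, 5 did not overlap between groups: PDK1 and MDH1 were higher, and PDK3, SUCLA2 and MPC1 were lower. MPC1 took 32.96% ± 1.11 of the carrier's FPKM in siControl and 28.6% ± 1.81 in siASGR1. For 3 libraries against 3, the exact two-sided permutation test cannot go below p = 0.1, the value all 5 reached (0.2 after Benjamini-Hochberg adjustment over the 10), so none could pass. The difference was 9.21 percentage points for PDK1, 3.65 for MDH1, -8.21 for PDK3, -11.6 for SUCLA2 and -4.32 for MPC1. ME2 took 96.3% ± 1.30 and 98.4% ± 1.18 of the mitochondrial malic enzyme pair, with overlapping groups.

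Of the 5 genes tested of anaplerosis, malic enzymes and carriers, 4 were called higher and 0 lower under both scalings. Those called were ME2, SLC25A1, SLC25A10 and SLC25A11, and PC was not called. Over all genes tested, 20.9% were higher and 40.4% lower as deposited, and 29.9% and 28.9% with median-of-ratios scaling. PC, pyruvate carboxylase, which makes oxaloacetate from pyruvate, was 51.8 ± 3.77 and 49.4 ± 2.39 (interval -0.21 to 0.08). ME2, a mitochondrial malic enzyme, was 11.29, 12.10 and 14.24 in siControl and 15.21, 15.90 and 15.36 in siASGR1 (log2 fold change 0.29, SE 0.08, adjusted p = 0.0156). ME3, the other mitochondrial malic enzyme, was 0.49, 0.59 and 0.32 against 0.08, 0.21 and 0.45, on about 6 to 38 fragments, and was not tested. ME1, the cytosolic one, was 14.6 ± 0.78 and 14.8 ± 0.13 (adjusted p = 0.796; called higher with median-of-ratios scaling, 0.0254).

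The 3 mitochondrial carriers all rose. SLC25A1 (ENSG00000100075; GRCh38 chromosome 22, 19175575 to 19178830), which exports citrate in exchange for malate, was 74.63, 72.67 and 63.60 in siControl and 99.44, 112.00 and 95.41 in siASGR1. It rose 1.45-fold with no overlap (log2 fold change 0.53, SE 0.08, adjusted p = 0.000953). SLC25A10, the dicarboxylate carrier, was 7.60, 7.73 and 6.71 against 8.44, 10.24 and 9.37, a 1.27-fold rise (adjusted p = 0.0125). SLC25A11, which exchanges malate for α-ketoglutarate, was 18.41, 18.95 and 18.20 against 23.33, 26.86 and 23.29, a 1.32-fold rise (adjusted p = 0.00134). In all 3, siASGR1 replicate 2 was the highest library. SLC25A11 shares 9.1% of its exon bases with RNF167 (33.3 FPKM on average) on the other strand. SLC25A10 shares 46.6% with AC139530.2 on the same strand, which was listed at 0, so both carriers' values are uncertain to that extent.

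Pathway genes outside the 33 were taken from lists chosen by function. Their counts stand beside 20.9% higher and 40.4% lower over all genes tested, or 29.9% and 28.9% with median-of-ratios scaling. The calls of the genes named from them below were the same with median-of-ratios scaling. Of 11 other genes of the cycle and the succinate step, 3 were higher and 5 lower, near the shares of all genes. With median-of-ratios scaling the counts were 4 and 2. SDHC, a membrane anchor of succinate dehydrogenase, rose from 27.6 ± 1.5 to 35.7 ± 2.71 (adjusted p = 0.00263), while SDHAF2, an assembly factor of the enzyme, fell from 7.57 ± 0.33 to 5.66 ± 0.41 (adjusted p = 0.00184).

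In the list of other pyruvate fates and PDH control, which also holds pyruvate kinase genes and PDPR, 7 of 10 genes tested rose and 2 fell (8 and 1 with median-of-ratios scaling). PCK2, the mitochondrial enzyme that turns oxaloacetate into phosphoenolpyruvate, rose 2.78-fold, from 13.3 ± 0.82 to 37.1 ± 1.89 (adjusted p = 4.23e-06). LDHA, which reduces pyruvate to lactate, rose from 128.9 ± 2.00 to 180.6 ± 3.11 (adjusted p = 3.2e-05). PKLR, the liver pyruvate kinase gene, rose from 2.10 ± 0.023 to 4.34 ± 0.22 (adjusted p = 4.7e-05).

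Glutamine and amino acid anaplerosis rose in 6 and fell in 4 of 11 tested, under both scalings. GLUD1, which makes α-ketoglutarate from glutamate, rose from 53.0 ± 1.40 to 66.1 ± 1.29 (adjusted p = 0.000318); its copy GLUD2 is nearly identical, so reads may be split between them. SLC25A13, the aspartate-glutamate carrier of liver, rose 2.53-fold, from 10.2 ± 0.65 to 25.9 ± 1.27 (adjusted p = 6.6e-06).

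Of 6 genes tested of the propionyl-CoA route into succinyl-CoA, 4 were lower and 0 higher under both scalings, against 40.4% of all genes lower as deposited and 28.9% with median-of-ratios scaling. MCEE, the epimerase of this route, fell from 21.3 ± 0.67 to 11.6 ± 0.88 (adjusted p = 3.57e-05). PCCB, a propionyl-CoA carboxylase subunit, fell from 10.9 ± 0.30 to 6.40 ± 0.60 (adjusted p = 0.000132), and MMUT, the mutase that ends the route, from 9.85 ± 0.37 to 7.49 ± 0.34 (adjusted p = 0.000887).

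Among cofactor genes (lipoate, thiamine, biotin and NAD), 4 of 10 tested were lower, near the 40.4% of all genes, and 0 were higher. With median-of-ratios scaling 3 were higher and 3 lower. LIAS, which makes the lipoyl groups of DLAT and DLST, fell from 5.75 ± 0.36 to 4.11 ± 0.43 (adjusted p = 0.00337). SLC25A51, the mitochondrial NAD carrier, fell from 5.15 ± 0.87 to 3.28 ± 0.29 (adjusted p = 0.00502), and NADK2, the mitochondrial NAD kinase, from 29.1 ± 2.05 to 21.1 ± 1.29 (adjusted p = 0.000915).

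Citrate users and other carriers rose in 4 and fell in 2 of 8 tested (5 and 2 with median-of-ratios scaling). UCP2, an inner membrane carrier, rose from 6.36 ± 0.33 to 12.5 ± 0.36 (adjusted p = 1.51e-05). ACLY, which splits cytosolic citrate into acetyl-CoA and oxaloacetate, rose from 105.7 ± 4.26 to 132.0 ± 3.78 (adjusted p = 0.000625). SLC25A20, the carnitine carrier, fell from 58.5 ± 2.50 to 43.7 ± 1.03 (adjusted p = 0.000183).

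Genes of mitochondrial content and biogenesis split into 5 higher and 5 lower of 14 tested, against 5 and 2 with median-of-ratios scaling. HSPD1 and HSPA9, matrix chaperones, rose 2.32-fold and 1.51-fold, and TOMM40, the import pore, rose 1.74-fold (adjusted p at most 3.12e-05). Of the genes that fell, GABPA and TOMM20 were called lower under both scalings. GABPA fell from 4.80 ± 0.15 to 2.89 ± 0.32 (adjusted p = 0.000477), and TOMM20 from 116.0 ± 7.07 to 89.7 ± 2.24 (adjusted p = 0.000687). PPARGC1A, a coactivator of mitochondrial genes, was listed at 0 in all 6 libraries. Of 7 oxygen sensing genes tested, 2 rose and 3 fell (3 and 3 with median-of-ratios scaling). HIF1A, an oxygen-regulated factor, fell from 65.2 ± 1.1 to 46.1 ± 2.22 (adjusted p = 9.04e-05). Its relative EPAS1 rose from 28.0 ± 0.43 to 39.05 ± 1.15 (adjusted p = 6.03e-05), and HIF1AN, an inhibitor of HIF, fell from 12.97 ± 0.28 to 9.52 ± 0.32 (adjusted p = 0.000209).

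**Figure D4:**
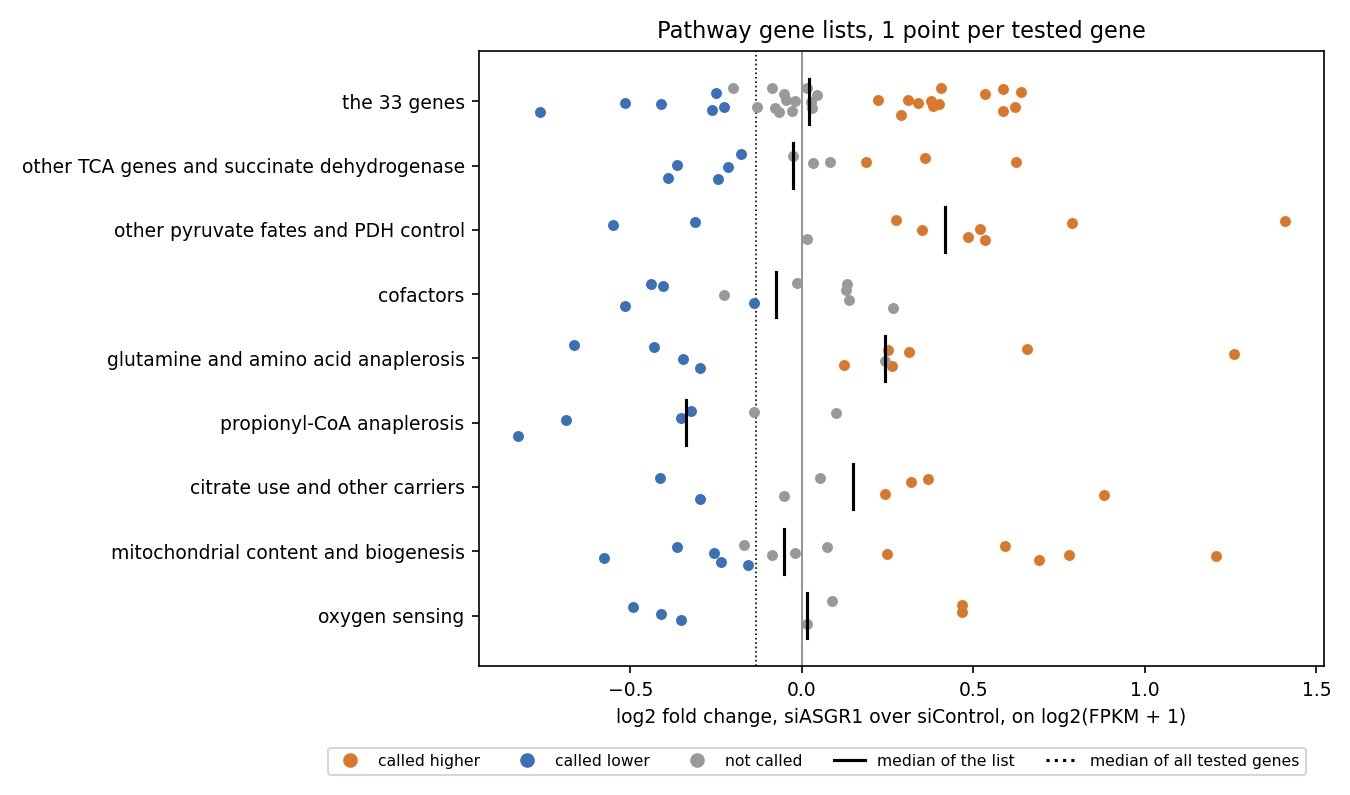
Log2 fold change of each tested gene in the 33 genes and in 8 other pathway lists (orange called higher, blue called lower, grey not called), with the median of each list as a bar and that of all tested genes as a dotted line. The propionyl-CoA and cofactor lists have no gene called higher, and the list of other pyruvate fates and PDH control has the highest median, 0.42.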

How the data were processed

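RNA of 6 Huh7 libraries was sequenced from TruSeq RNA libraries, per the labels' protocols. The submitters' processing notes list HISAT2 2.0.1, cutadapt 1.9.1, bcl2fastq and the build hg19. How fragments were counted, with which strand setting and gene models, is not given in the sources used here. FPKM, rounded to 2 decimals, were deposited in 1 table of the whole series, whose name speaks of raw counts, and in 6 single files. The whole-series table was used.

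Genes reaching 1 FPKM in 3 or more libraries were tested with limma 3.58.1 (R 4.3.3) on log2(FPKM + 1), with the group as the only term, a prior that follows expression, two-sided, and Benjamini-Hochberg adjustment. The pseudocount of 1 understates changes of low genes; folds are ratios of mean FPKM. Depth was recovered with GENCODE v29 exon lengths: 95.2% to 96.0% of low values examined came out as whole fragments within rounding, against 11.0% to 11.8% by chance, but the depth was fitted to make this share highest. Precision given by replicates includes counting error. Symbols matched 51996 IDs (89.8%). Coordinates are GENCODE v29 on GRCh38, since the tables hold none.

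The members and lists were chosen with earlier results of these data known. Named genes are all members, up to 3 called genes with the smallest p of each list, ASGR1, and markers. ME1, PDK4, PDPR, PPARGC1A, GABPA and TOMM20 were named after their values were seen. Some genes that this rule selects are not reported here. Lists are described by counts and medians, with no set test. The fit was also run on simulated fragments with few changed genes and no difference in scaling between groups. Its outcome does not carry over to these data, where the split of calls depended on scaling. Alternatives covered scaling, pseudocount, filters, prior, replicate block, source of values, threshold and leaving out each library. Same-numbered libraries of both groups did not deviate together (correlations of -0.019, 0.002 and 0.012), so the numbers were not taken as pairs.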

Additional observations from a re-analysis of the deposited data

How the results depend on the processing

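The 13 members called higher were called higher in all 6 fits that left out 1 library, with the other pseudocounts, priors, scalings and single files, and with no filter; with FPKM of at least 5 the count was 12, since PDK1 was not tested, and at an adjusted p under 0.01 it was 11. Members called lower numbered 3 with median-of-ratios scaling and 5 to 8 under the other alternatives. With the replicate block 13 were higher and 7 lower, PDK3 being added (adjusted p = 0.0461), and no other member's call changed; over all genes the block gave 2761 higher and 5303 lower. Over all genes, 3382 were lower when FPKM of at least 5 were required. By role, median-of-ratios scaling gave 3 higher and 0 lower for pyruvate entry and 1 lower for the cycle; quantile normalization gave 4 lower for the cycle. Pyruvate entry had 1 lower with upper-quartile scaling, with no filter and at 0.01, and 1 to 3 without 1 library. Kinases and phosphatases had 0 higher with FPKM of at least 5, and the role of anaplerosis, malic enzymes and carriers had 2 higher at 0.01. Directions of members that were not called turned with median-of-ratios scaling for PDHB (0.096), PDHX (0.013), PDK2 (0.001), IDH3A (0.074), IDH3B (0.072), SUCLG1 (0.12), MDH2 (0.132) and PC (0.084). They turned with upper-quartile scaling for PDHB (0.019), IDH3A (0.011), SUCLG1 (0.042), MDH2 (0.053) and PC (0.005), and with quantile normalization for MPC2 (-0.054), PDK2 (0.12) and IDH3A (0.131). Without 1 library the log2 fold change ran from -0.012 to 0.053 for MPC2, -0.016 to 0.052 for DLD, -0.002 to 0.088 for CS, -0.025 to 0.062 for SUCLA2 and -0.054 to 0.004 for MDH2. Of the shares that overlapped between groups, that of ME2 kept its direction without any 1 library, and the others turned, with differences of -1.62 to 0.0364 percentage points for PDK2, -1.77 to 0.692 for IDH1, -0.412 to 0.00814 for IDH3A and -1.25 to 1.19 for PDP1. The cause of these changes was not tested. ME3, at 6 to 38 fragments, is too shallow for a comparison.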
